A study of Dugesia japonica with 4 samples.

Results

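The subject is a set of 75 genes of the planarian Dugesia japonica whose transcripts lay mainly on one side of head blastema sections, and which a rule on the same counts called even between the rim and the interior of the sections. They were chosen by their summed UMI counts in these 4 libraries, from 38792 features of which 28999 carry a DJKW identifier. A gene had to have a UMI (a counted transcript molecule) in at least 20% of the pooled spots and a mean of at least 50 CPM over the 4 wells. Its CPM + 1 in well A also had to exceed 0.25 of that in the lowest other well, and 2684 features met these abundance criteria. Each well then gave a log2 ratio of CPM + 5 on the left over the right side of the sections, which had to be above 0 in 4 wells and to average at least 0.7. Of the 182 genes that passed (6.78% of the abundant features), the 75 had a mean log2 ratio of interior over edge spots between -1 and 1. The mirrored rule gave 27 right-side genes, and 107 other left-side genes had a mean interior over edge ratio below -1.

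The samples are 4 Visium libraries of wild-type (WT) head blastema at 5 days post amputation, one per slide well (A to D), and they form 1 group. The animals were fresh frozen and cut into 8 µm cryosections from anterior to posterior. Left means the side of lower array columns of a section on the slide, since the sources used here do not give the body axis that it corresponds to. The labels do not say whether the wells hold different animals, so spreads and p-values refer to these libraries and may be technical.

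Planarians rebuild lost heads from pluripotent stem cells called neoblasts. Their progeny gather under the wound epidermis as an unpigmented bud, the blastema, in which epidermis, muscle, nerve and gut progenitors differentiate. Muscle cells of the body wall carry positional signals along the body axes. A Visium spot can cover cells of more than one type, so fewer cells of a type and less RNA per cell cannot be told apart here. The files repeat the identifier in the name column for every feature, so neither the 75 genes nor markers of the labelled tissue can be named, and what each gene does is not given.

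The files held 1216 spots on tissue with 11838407 UMIs, of which 180 spots and 1499569 UMIs were in well A, against 201 to 433 spots and 2190105 to 4395756 UMIs in wells B to D. Each well held 12 sections of 5 or more connected spots, with a median of 14 spots per section in well A, 17.5 in B, 34.5 in C and 35 in D. Left spots numbered 598 and right spots 555. Across the 2684 abundant features, log2 CPM of well A correlated with the other wells at r between 0.777 and 0.882, against 0.931 to 0.981 among wells B, C and D. Well A thus stood apart over the abundant features as a whole, which include the 75 genes. Between 19 and 112 spot barcodes were shared by a pair of wells.

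The 75 genes together took a small part of each library, and more of it on the left than on the right. They made up 2.13% of UMIs on the left and 1.22% on the right of well A, and 1.11% on the left and 0.422% on the right of well B. Well C had 0.734% on the left and 0.391% on the right, and well D 0.751% and 0.385%. The left was higher in each well, but the right side of well A exceeded the left side of wells B, C and D, so the left and right shares overlapped between wells. Since the rule used this contrast, these values describe the choice and were not tested. Median depth per spot was 8231.5, 11912, 10357 and 7672 UMIs on the left of wells A to D, against 8903, 9684, 9913 and 7934 UMIs on the right, so neither side was the deeper in every well. In 72, 81, 176 and 199 pairs of a left and a right spot of one section matched on UMIs in wells A to D, the median log2 ratio of the 75 genes was 0.86; left spots with no partner were left out.

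**Figure D1:**
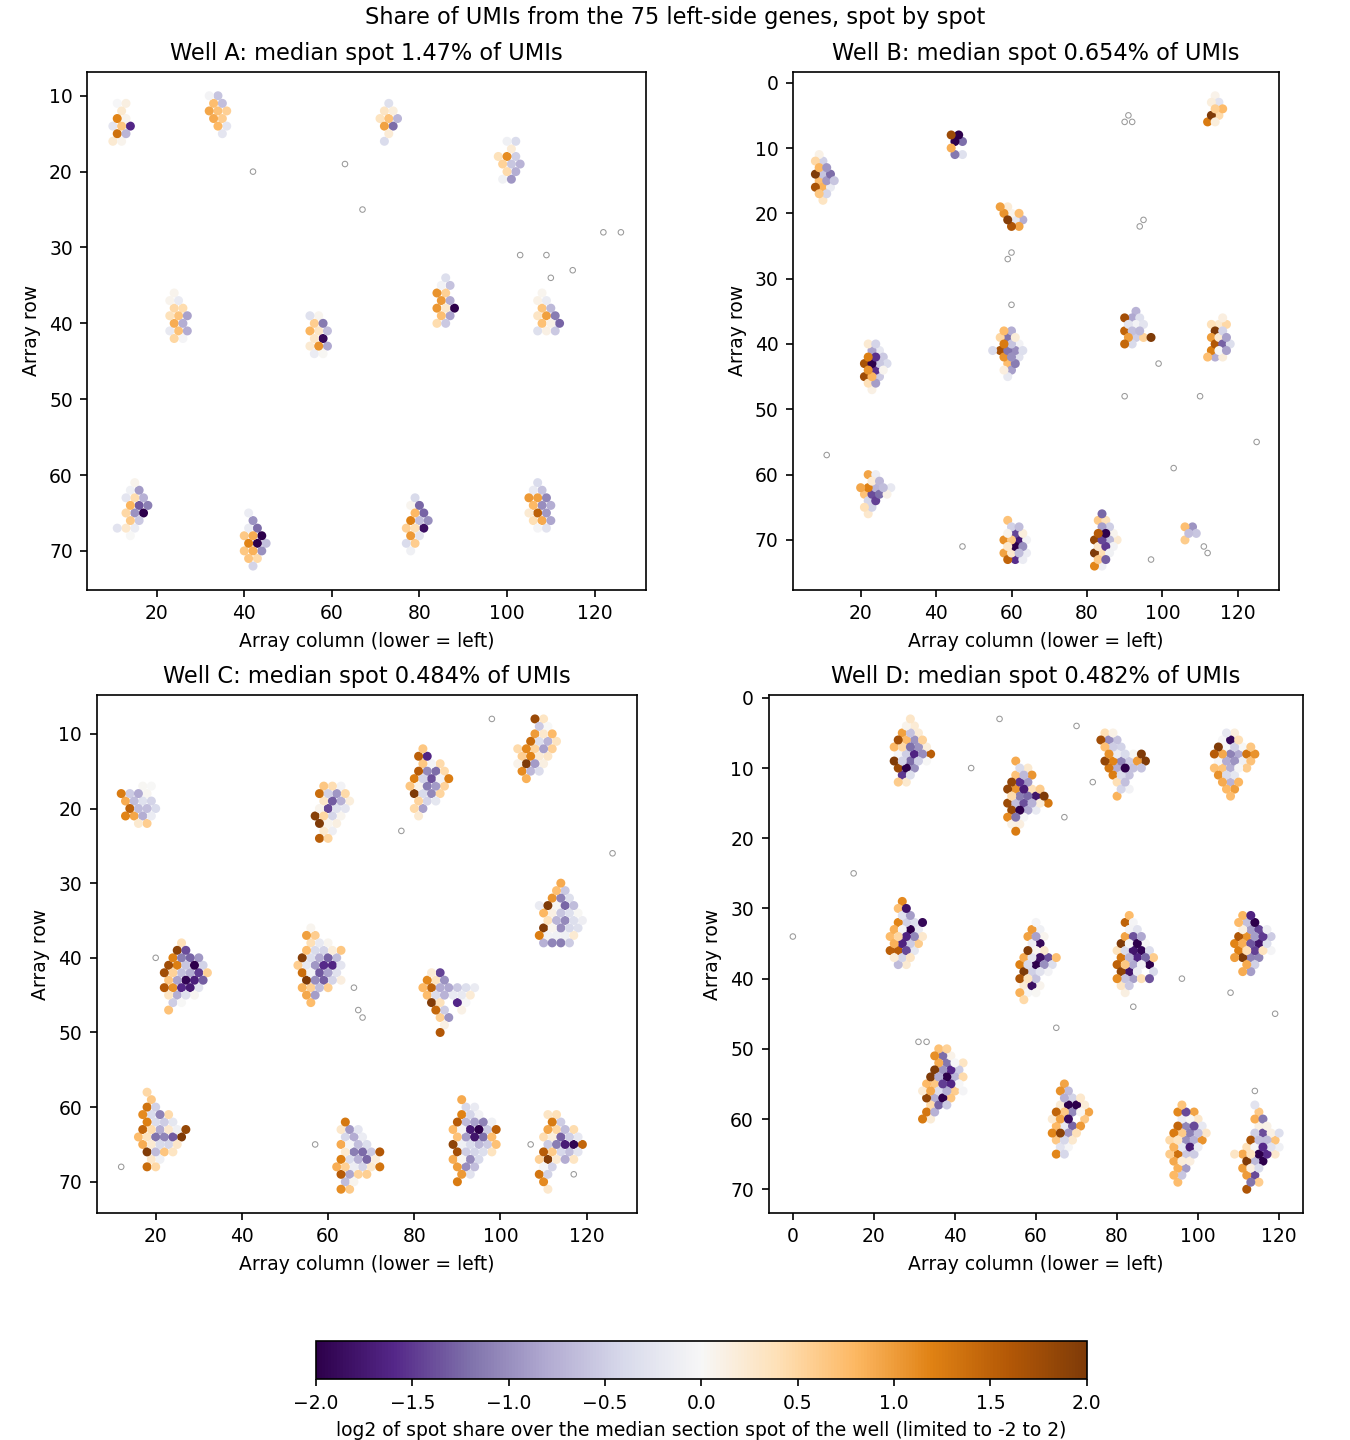
Each panel is a well, with spots drawn at their array column (x axis) and array row (y axis), coloured by the log2 ratio of the spot's share of UMIs from the 75 genes to the median section spot of that well, and open circles are spots off sections. Orange spots lie on the left of most sections, and in wells C and D the purple spots fill the interior, whereas in well A they lie on the right flank; the well medians run from 0.482% in well D to 1.47% in well A.

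Across the 75 genes the mean log2 ratio of left over right ran from 0.70 to 1.83 with a median of 0.89, a 1.85-fold difference, against a median of 0.23 over the 2684 abundant features. By construction 75 of 75 were higher on the left in 4 wells, where 49.2% of abundant features were. An average of 1 or more, or a 2-fold difference, was reached by 22 genes, and 8 reached it in each well. The lean was not the same size in each library. Its median was 0.80 in well A, 1.20 in B, 0.83 in C and 0.83 in D. Over the abundant features the medians were 0.08, 0.34, 0.21 and 0.28, so well B had the largest median there too. The largest ratio was in well B for 51 of the 75 genes and for 1119 of the 2684 abundant features. Levels differed between wells by more than the lean, so in only 5 genes did the lowest left well exceed the highest right well (6.67%, against 5.55% of abundant features), namely DJKW.957, DJKW.18719, DJKW.5510, DJKW.10625 and DJKW.9416.

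**Figure D2:**
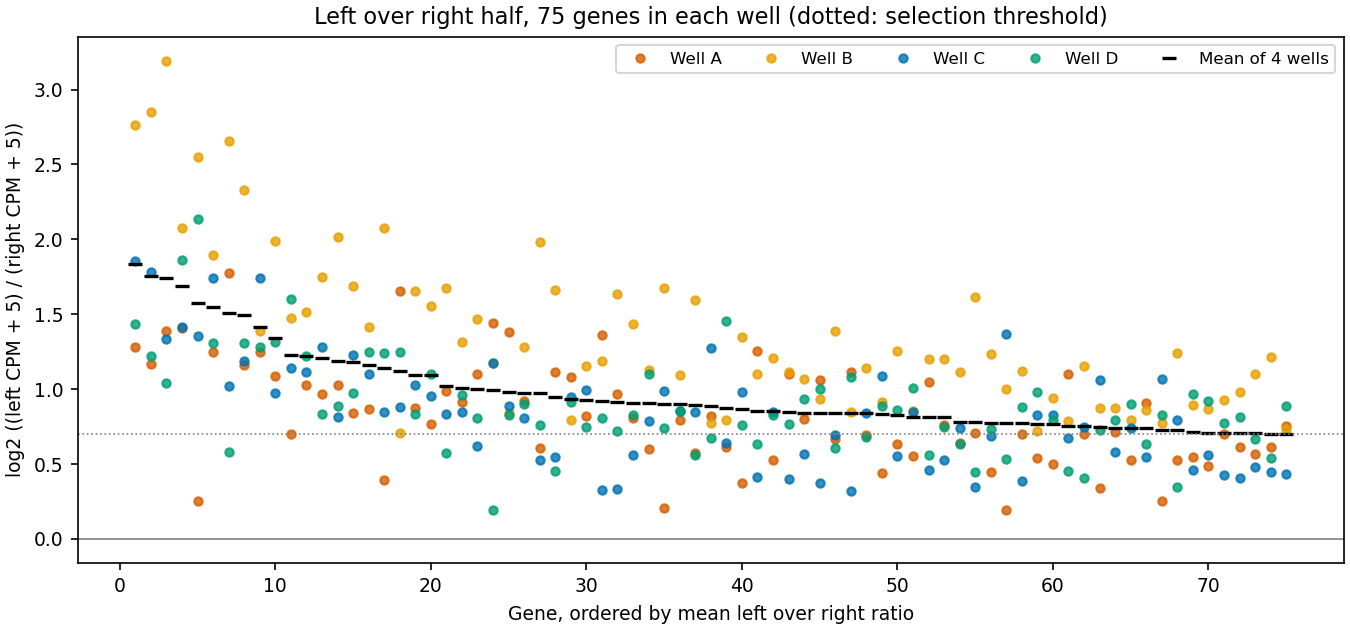
The y axis gives the log2 ratio of CPM + 5 on the left over the right side for each of the 75 genes, ordered along the x axis by the mean (black bar), with 1 point per well. Points of well B lie highest for 51 genes, no point is below 0, and the dotted line marks the threshold of 0.7.

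The strongest lean was that of DJKW.10092. It had 579, 361, 242 and 232 CPM on the left in wells A to D, against 235, 49.0, 63.3 and 82.5 CPM on the right. The left values of wells C and D lay at the level of the right side of well A, so the sides overlapped although each well had a higher left. Its mean log2 ratio was 1.83 ± 0.66 (SD, n = 4).

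DJKW.19383 had 322, 110, 64.5 and 70.3 CPM on the left in wells A to D, against 141, 10.9, 15.2 and 27.3 CPM on the right, a mean log2 ratio of 1.75 ± 0.78 (SD, n = 4). Well B had both the lowest right value and the largest ratio, 2.85. DJKW.27641 also had its largest ratio in well B, with 846, 360, 107 and 94.8 CPM on the left, against 319, 34.9, 39.3 and 43.6 CPM on the right, and its ratio of 3.19 in well B stood apart from 1.04 to 1.39 in wells A, C and D.

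DJKW.957 leaned in much the same way in the 4 wells. It had 361, 328, 239 and 378 CPM on the left in wells A to D, against 133, 74.1, 86.4 and 100.4 CPM on the right, and the 2 sides did not overlap. Its mean log2 ratio was 1.69 ± 0.33 (SD, n = 4), and its left side was the higher in 47 of 48 sections, the most of any of the 75 genes. Among these 6 genes DJKW.5892 varied most, with log2 ratios of 0.26 in well A, 2.55 in B, 1.36 in C and 2.14 in D. DJKW.19310 ranged from 1.25 in well A to 1.90 in well B. These 6 genes held 10.2% of the UMIs of the whole set.

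Of the 6 most abundant genes, 5 had a mean left ratio under the median of the set, but abundance and lean did not run in one order: DJKW.10092 and DJKW.27641 followed close behind at 234 and 232 CPM. DJKW.25464, the highest at a mean of 764 ± 431 CPM (SD, n = 4), had 1657, 743, 695 and 726 CPM on the left in wells A to D, against 1218, 391, 324 and 391 CPM on the right. Within each well the left was higher, yet the right side of well A exceeded the left side of the other wells. DJKW.9642 (422 ± 246 CPM), DJKW.1907 (343 ± 246 CPM), DJKW.3293 (287 ± 94.4 CPM) and DJKW.26625 (273 ± 152 CPM) had mean log2 ratios of left over right between 0.71 and 0.85. DJKW.28747 (235 ± 95.0 CPM) had a ratio of 1.19 and ran against the others in its levels, with 137, 372, 394 and 378 CPM on the left, against 64.4, 88.3, 222 and 202 CPM on the right. Its lowest well was A, where most of the set was highest. These 6 genes held 27.1% of the UMIs of the set, and 48 of the 75 genes were below 100 CPM.

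At the threshold, DJKW.10843 (mean ratio 0.70) and DJKW.24288 (0.70) lay just inside, and DJKW.682 (0.69) and DJKW.310 (0.69) just outside. On the interior limit, DJKW.17341 (-0.999) and DJKW.6621 (-0.991) lay just inside, whereas DJKW.23703 (-1.01) and DJKW.8471 (-1.02) lay just outside. The set therefore has no gap around it on either measure.

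The left spots of the single sections are those the rule used, so their values describe how the chosen lean was spread and do not add to it. The share of UMIs from the set was higher on the left in 48 of 48 sections, by 1.02-fold to 3.62-fold with a median of 2.05-fold. For single genes the left was the higher in 34 to 47 sections, with a median of 41, against 31 over the abundant features. DJKW.13722 had the fewest such sections, 34, and was also the most punctate: 60 of the 598 left spots held 76.0% of its left UMIs, where the median of the 75 genes was 47.5%. It also had a UMI in the fewest pooled spots of the set, 21.5%, at a mean of 56.9 CPM. Both measures depend on counts, so sparse detection and a patchy pattern cannot be told apart for it. The most even among the left spots was DJKW.3293, at 29.0%, one of the 6 most abundant genes (287 CPM). Across the 48 sections, with well means removed, the log2 left CPM of pairs among the 6 most abundant genes correlated at r between 0.08 and 0.65; sections of one well share a library.

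Across 5 equal bins of section width, the level fell from the left edge inwards and did not keep falling. The set took 1.41% ± 0.41 of UMIs in bin 1 (left-most), 1.11% ± 0.74 in bin 2, 0.789% ± 0.80 in bin 3, 0.548% ± 0.39 in bin 4 and 0.703% ± 0.18 in bin 5 (SD, n = 4 wells). In wells B, C and D bin 5 exceeded bin 4, with 0.554%, 0.546% and 0.877% in bin 5 and 0.416%, 0.334% and 0.316% in bin 4. In well A the share peaked in bin 2 at 2.21% and was lowest in bin 5 at 0.835%. Of the 75 genes, 68 had their highest mean in bin 1 and 7 in bin 2, while 62 were lowest in bin 4, 11 in bin 5 and 2 in bin 3. Only 9 fell at each step. The bins divide the same array columns that the rule used, so a high left was fixed by the choice. These counts have no share of abundant features beside them and describe the set only. Interior spots made up 1.11% of bin 1, 27.2% of bin 2, 44.6% of bin 3, 35.3% of bin 4 and 4.5% of bin 5, so position across the width and distance from the rim cannot be told apart in these bins.

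**Figure D3:**
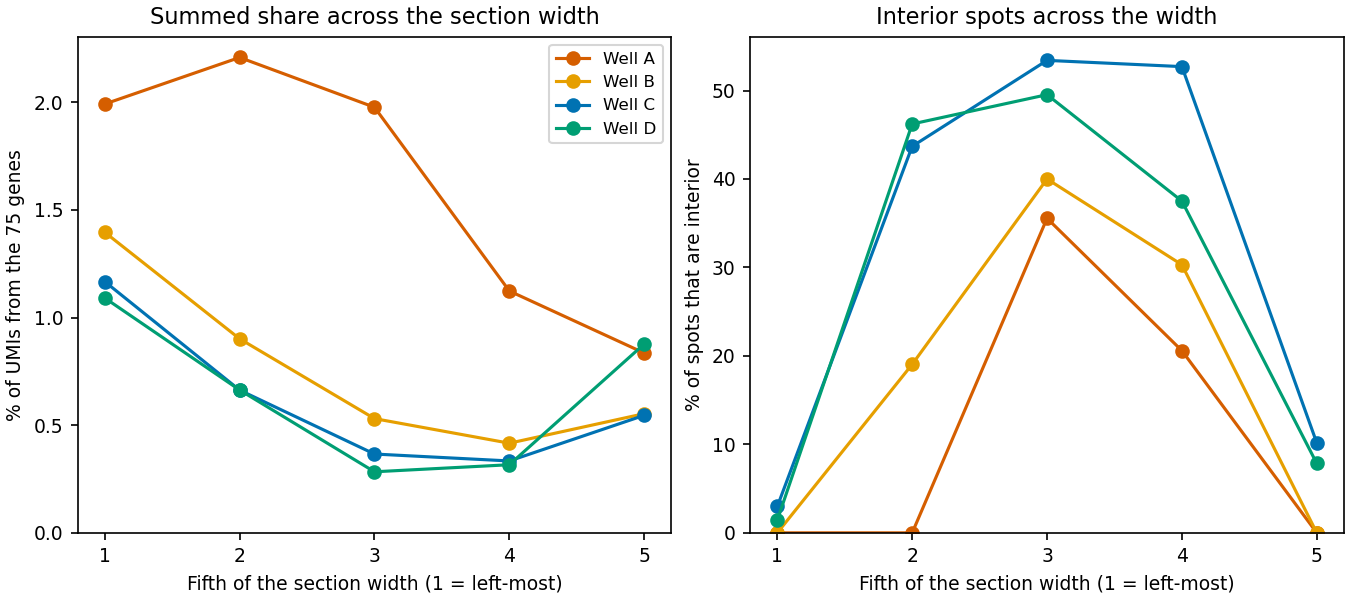
The left panel plots the share of UMIs from the 75 genes (y axis, percent) in 5 width bins of the sections (x axis, 1 is left-most), 1 line per well, and the right panel the percentage of spots in each bin that are interior. Wells B, C and D fall to bin 3 or 4 and rise again in bin 5, while well A peaks in bin 2 at 2.21% and falls to 0.835%.

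The mean ratio that the rule called even joined a well in which the set was near even or higher inside to 3 wells in which its median lay below -1. A spot was interior when tissue lay on its 6 neighbouring positions and edge otherwise. The median log2 ratio of interior over edge was 0.31 in well A, against -1.03, -1.07 and -1.24 in wells B, C and D (features: -0.04 in A, -0.35 in B, -0.33 in C and -0.34 in D). In wells B, C and D 75 of 75 genes were lower in the interior in each of the 3 wells (66.9% of abundant features), while in well A 52 of the 75 were higher there (45.5% of abundant features). The ratio was highest in well A for 73 of the 75 genes (57.9% of abundant features). The rule asked for a 4-well mean above -1, and in wells B to D the mean of 50 of the 75 lay below -1. Those genes could pass only with a higher value in well A, so the well A shares describe the choice. On average over 4 wells 75 of 75 were below 0 (75.9% of abundant features), with a median of -0.79. The range was -0.999 to -0.18, and only 11 lay within 0.5 of 0. In 4 of 4 wells 23 of the 75 were lower in the interior, against 44.3% of abundant features; the rule used this contrast, and nothing is read from that share.

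Single spots showed the same. Interior spots of well A had a median of 2.31% of UMIs from the set and edge spots 1.40%. In well B the medians were 0.370% in the interior and 0.727% at the edge, in well C 0.315% and 0.618%, and in well D 0.282% and 0.593%. Well A had 23 interior spots, all in sections, with a median of 8675 UMIs, so its interior values rest on few spots, and 6 of them lay on the left and 16 on the right. The interior was higher on both sides of well A, with 2.91% in the left interior and 2.08% at the left edge, and with 1.74% in the right interior and 1.07% at the right edge. In wells B, C and D it was lower on both sides, for example 0.429% in the left interior and 0.937% at the left edge of well D.

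**Figure D4:**
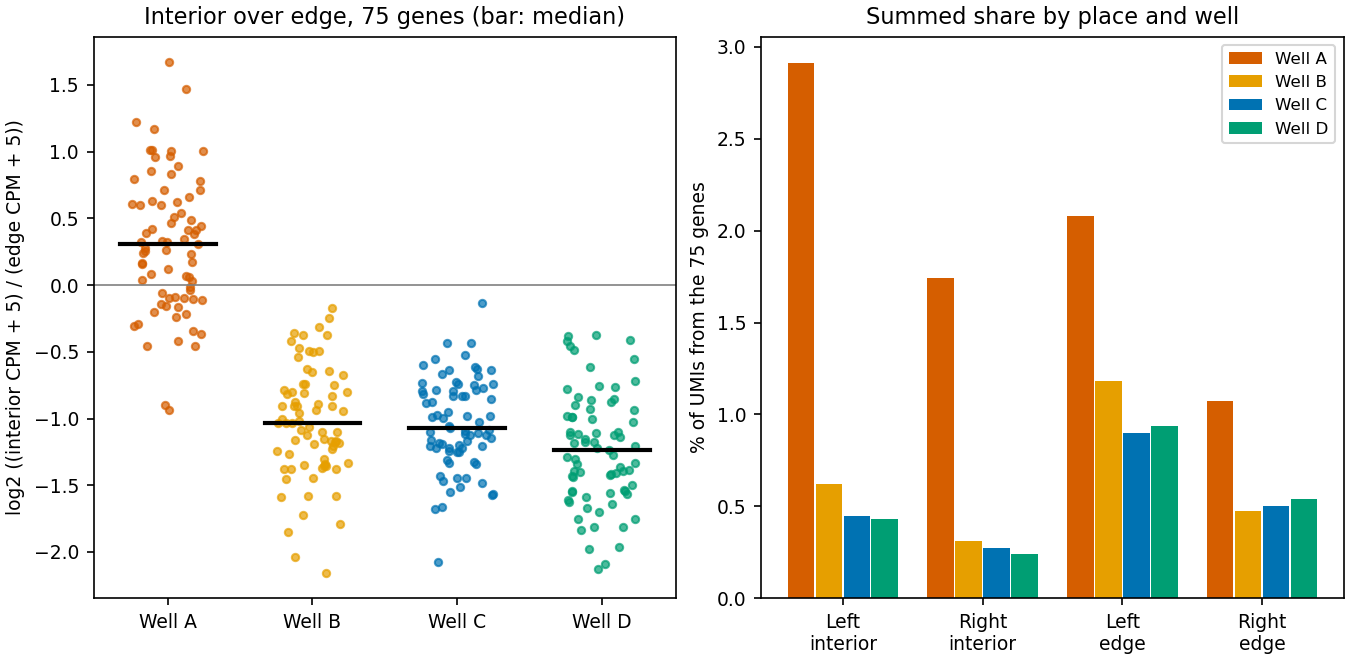
In the left panel each point is 1 of the 75 genes in a well (x axis) and the y axis is the log2 ratio of interior over edge CPM + 5, with the median as a bar; in the right panel bars give the share of UMIs from the set (y axis, percent) by place and well. The median is 0.31 in well A and -1.03 to -1.24 in wells B, C and D, and the left interior is the highest place in well A at 2.91% but lies below the left edge in the other wells.

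Without well A, the mean ratio was below -1 for 50 of the 75 genes and the median fell to -1.13. The whole rule applied to wells B, C and D alone found 26 genes, 13 of them among the 75. Of the 75 genes, 43 kept a mean of 50 CPM in wells B to D, 25 kept a mean interior over edge ratio within the limits, and 14 kept both. The median left over right ratio of the 75 genes was 0.90 without well A.

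DJKW.10092 and DJKW.28747 were the genes with the most even average, -0.28 and -0.18. DJKW.10092 had log2 ratios of interior over edge of 1.67 in well A, -1.03 in B, -0.64 in C and -1.10 in D, so its average joined an excess in one well to deficits in the others. In the left interior of well A it reached 1874 CPM, against 487 CPM at the left edge of that well. DJKW.28747 had smaller ratios, 0.66 in well A, -0.37 in B, -0.43 in C and -0.56 in D, and its left interior and left edge were close in wells B to D, at 387, 378 and 346 CPM in the interior and 370, 403 and 397 CPM at the edge. DJKW.17341 and DJKW.6621, at the other limit, had ratios of 0.60 and -0.10 in well A and of -2.13 and -1.82 in well D.

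Levels were highest in well A for most of the set. Of the 75 genes, 70 had their highest CPM there (93.3%, against 53.1% of abundant features), and 47 exceeded 2 times the highest other well (182 of 2684 abundant features). DJKW.25404 had the largest spread, with 241, 70.8, 24.6 and 14.9 CPM in wells A to D, a 16.2-fold range. DJKW.9416 had the smallest, with 82.7, 81.7, 81.0 and 73.5 CPM. The mean CPM criterion thus admitted genes that were high mainly in well A, and whether these sections, animals or the library differ in well A was not tested.

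The 5 genes that were not highest in well A were DJKW.73, DJKW.5510, DJKW.10625, DJKW.27332 and DJKW.28747. DJKW.10625 and DJKW.27332 ran close together: DJKW.10625 had 115, 291, 173 and 147 CPM in wells A to D and DJKW.27332 had 84.0, 263, 180 and 144 CPM. Both were lowest in well A and highest in well B. Both were lower in the interior in 4 wells. DJKW.73 had interior over edge ratios of -0.90 in well A and -0.17, -0.14 and -0.42 in wells B, C and D, the reverse of the order of the set.

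Edge spots made up most of the left and right spots that the rule used, 142 of 212 left spots in well C for example, so a left lean at the edge was fixed by the choice. At the edge 75 of 75 genes were higher on the left in 4 wells (36.6% of abundant features). The rule also used the interior spots, 70 of the 212 left spots in well C, so a lean there is not independent of the choice either. In the interior 47 were higher on the left in 4 wells (30% of abundant features), and 66 in the larger wells C and D together (62.3% of abundant features). Over wells C and D the median log2 ratio of left over right was 0.58 in the interior and 0.74 at the edge, and 56 of the 75 genes had the larger ratio at the edge. That count has no share of abundant features beside it, and edge spots weighed more in the rule, so nothing is read from it. The features had medians of 0.26 in the interior and 0.14 at the edge. Wells A and B had 6 and 12 left interior spots, and single genes ran from -4.27 to 2.56 in the interior of well A, so interior ratios of these wells are imprecise.

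The rule did not compare positions along the array rows, so the row direction of each section was tested. Ends were the spots in the outer 25% of the row range of a section on either side, and the middle was the rest. This comparison is not fully independent of the rule, whose interior spots need neighbours in adjacent rows: interior spots were 4.71% to 13.7% of the end spots and 22.1% to 49.0% of the middle spots. Over all section spots, 3 of the 75 genes were higher at the ends (4%). That share was near those of the 8264 features tested (3.03%) and of the 2684 abundant ones (3.65%). Another 8 were lower (10.7%, against 2.15% and 4.43%). Calls are from edgeR's quasi-likelihood test with the well as a block and an adjusted p under 0.05. The median log2 ratio was -0.11, and -0.01 over all features. Left spots were 53.0% to 67.1% of the end spots and 43.8% to 47.1% of the middle spots, so the ends held more of the side on which these genes are high.

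The 3 genes higher at the ends were DJKW.23186, DJKW.27332 and DJKW.10625, the last of which is named after its values were seen. DJKW.23186 had 355, 110, 72.2 and 67.6 CPM at the ends in wells A to D, against 235, 72.9, 32.5 and 28.1 CPM in the middle. Each well was higher at its ends, but the groups overlapped, also among wells B, C and D alone. Its log2 ratio was 0.79 ± 0.13 (SE, n = 4 wells, adjusted p = 0.010).

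DJKW.27332 had 104, 298, 252 and 193 CPM at the ends, against 64.9, 226, 144 and 115 CPM in the middle, a log2 ratio of 0.58 ± 0.09 (SE, adjusted p = 0.0079). DJKW.10625 had 155, 334, 220 and 200 CPM at the ends, against 76.6, 253, 148 and 116 CPM in the middle, with the same log2 ratio of 0.58 ± 0.11 (SE, adjusted p = 0.018). Both were higher at the ends in 4 of 4 wells, and the groups overlapped. Without well C none of the 3 passed the test, although the log2 ratios were 0.72 for DJKW.23186 and 0.54 for DJKW.27332. On the left side alone none passed either, at 0.55 and 0.44 for these genes. With no block for the well no gene of the set was called in either direction.

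Of the 8 lower genes, DJKW.27641 had 425, 131, 34.4 and 30.2 CPM at the ends, against 723, 261, 96.3 and 91.6 CPM in the middle. It was lower at the ends in 4 of 4 wells, with a log2 ratio of -1.21 ± 0.14 (SE, adjusted p = 0.0013, and 0.093 with the side as a further term, where the ratio was -1.09). DJKW.10092 had 180, 206, 106 and 121 CPM at the ends, against 612, 241, 186 and 177 CPM in the middle, a log2 ratio of -0.91 ± 0.21 (SE, adjusted p = 0.039). Its difference was largest in well A, and its adjusted p was 0.057 without well B, 0.18 without well C, 0.061 in DESeq2 and 0.27 with wider ends.

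On the left side alone more of the set was low at the ends of the sections. Of the 75 genes, 22 were lower at the ends (1.91% of the 6859 features tested, and 2.65% of the 2684 abundant ones) and 0 were higher (2.48%), in the same edgeR test with the well as a block. The median log2 ratio was -0.37, against -0.02 over all features tested, and 66 of the 75 were below 0 (54.1% of those features). The 22 included the 8 genes lower over all spots, and 21 of the 22 were lower in 4 of 4 wells. Their log2 ratios ran from -1.73 to -0.40 with a median of -0.80. Of them, 15 were among the 22 genes with a mean left over right ratio of at least 1. Counts of the left middle enter both ratios, so these are not independent and nothing is read from that overlap.

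The summed share of the set on the left was 1.69% at the ends and 2.55% in the middle of well A, 0.941% and 1.26% in well B, 0.675% and 0.779% in well C, and 0.632% and 0.859% in well D. It was lower at the ends in each well. DJKW.27641 had 416, 183, 37.4 and 37.9 CPM at the left ends of wells A to D, against 1247, 511, 160 and 146 CPM in the left middle. Its 4 wells each showed a large drop, and its log2 ratio was -1.73 ± 0.12 (SE, adjusted p = 1.1e-06). DJKW.19232 had 78.1, 42.3, 30.5 and 25.2 CPM at the left ends, against 348, 73.9, 75.4 and 68.5 CPM in the left middle, where well A again had the largest difference. Its log2 ratio was -1.50 ± 0.20 (SE, adjusted p = 0.00037).

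**Figure D5:**
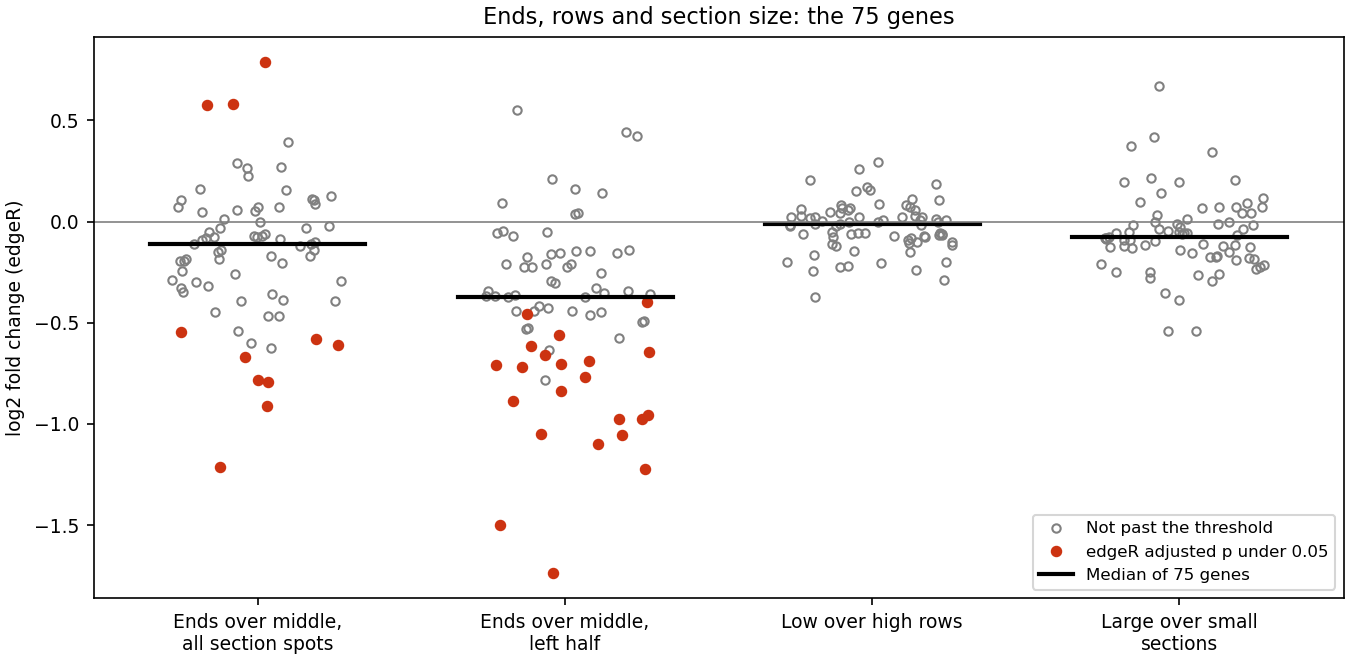
The y axis is edgeR's log2 fold change for each of the 75 genes (points) in the comparisons on the x axis, red where the adjusted p was under 0.05, with the median as a bar. Red points number 3 above and 8 below 0 for ends over middle, 22 below 0 for the left side alone, and 0 for rows and for section size.

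Other features of the left ends moved with this result. Interior spots were 0% to 14% of the left end spots and 15% to 48.3% of the left middle spots. The left-most bin held 25%, 25.5% and 23.7% of the left end spots in wells A, C and D, against 35%, 36.4% and 40.5% of the left middle spots. In well B it held 45.7% and 44.7%. Median depth was 8231.5, 10611.5, 9470 and 8842 UMIs at the left ends of wells A to D, against 8294.5, 13446, 10919.5 and 7277 in the left middle. Among edge spots alone, 14 of the 75 genes were lower at the ends over both sides (0.768% of 7549 features), and 25 were lower at the left ends (1.88% of 5890 features). Within the left-most bin 7 were lower (0.879% of 3412 features), and within the second bin 14 were (1.51% of 4886 features). Fewer features could be tested in the bins. The rule used interior spots, which in well A were 0% of the left end spots and 15% of the left middle spots. These counts are therefore not independent of the rule, and what lowers the set at the left ends was not tested. DESeq2 called 10 of the 75 lower in the left comparison (0.787% of features). By edgeR 14 were lower without well A (1.27% of features), 14 without well B (1.26%), 16 without well C (1%) and 19 without well D (2.37%).

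The other direction along the rows gave no call. Between low and high array rows of the sections 0 of the 75 genes were higher and 0 lower (0% of 8394 features each way) by edgeR, and DESeq2 also called 0. At an unadjusted p under 0.05, 1 gene of the set was higher in low rows and 3 were lower (2.47% and 1.97% of all features). The log2 ratios ran from -0.37 to 0.29 with a median of -0.01. Section size, above the median of the well or not, gave no call either: 0 of the 75 genes were higher and 0 lower in large sections (0% of 7984 features each way) by edgeR and by DESeq2. At an unadjusted p under 0.05, 2 were higher and 3 lower (1.95% and 1.69% of all features), and the ratios ran from -0.54 to 0.67.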

How the data were processed

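Counts are the UMI counts per feature and spot that the authors deposited, raw and written by Space Ranger 2.0.1 per the file headers. Seurat is named in the submitters' processing notes without a step. The build and its gene models were not given in the sources used here. A spot is a patch of tissue, not a cell. Barcodes shared between wells are array positions.

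The members, the lists and the tests were chosen with earlier results of these data known. CPM are counts scaled to the summed UMIs of the spots in question, and ratios use CPM + 5. Sections are groups of at least 5 connected tissue spots, and the mean array column of a section parts left from right. Ratios that the rule used, left over right and interior over edge, are given with no test. Genes named are those with the 6 highest left ratios and CPM, the 2 extremes of interior over edge, the neighbours of each threshold, the 2 largest called folds per test and direction, and the extremes of spread and punctateness.

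For the tests, counts were summed per well and zone and tested with the quasi-likelihood F-test of edgeR 4.0.16 (R 4.3.3) after filterByExpr and TMM, with Benjamini-Hochberg adjustment over all features tested. The well was a block, since each well gives both sums of a comparison. Standard errors are the log2 ratio over the square root of F. DESeq2 1.42.0 was an alternative. Data were simulated with a common dispersion set in advance and not estimated from these wells, and genes of a mean count of at least 20 were changed. The ends comparison (8231 genes) recovered 85% of 2-fold and 30% of 1.5-fold changes with 1 false call. The rows comparison (8350 genes) recovered 91% and 41% with 8 false calls, and the size comparison (8026 genes) 86% and 36% with 5 false calls. These figures hold for that assumed dispersion only, and the left-side comparison was not simulated. Wells C and D, the closest pair, differed by a chi-square of 10.5 per degree of freedom over features, so these 4 files are not copies of one library, which does not show that the wells come from different animals.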

Additional observations from a re-analysis of the deposited data

Results flagged for a closer look

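Of 75 sets of 4 well values examined, 16 held a well far from the other 3 by Dixon's criterion. Chance flags about 1 in 20 sets of unselected values, but the rule used these measures and admitted many genes through well A, so no chance count applies here. Well A was the one apart in 14 of the 16, on related measures. The share of UMIs from the set was high in well A over the right side (1.22%), the right edge (1.07%), the interior as a whole (2.05%), the left interior (2.91%) and the right interior (1.74%). Levels were high in well A for DJKW.25464 (1410 CPM), DJKW.1907 (711 CPM), DJKW.19383 (233 CPM), DJKW.19310 (200.1 CPM) and DJKW.19232 (153 CPM). The log2 ratio of interior over edge was high in well A for DJKW.10092 (1.67), DJKW.19383 (0.78), DJKW.28747 (0.66) and DJKW.19310 (0.33). In well B the left over right ratio stood apart for DJKW.27641 (3.19) and DJKW.17341 (2.33).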

How the results depend on the processing

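The rule found 26 genes without well A, and 26 to 101 when any 1 well was left out. In these runs the 20% of spots was still counted over the 4 wells. It found 40 with TMM factors over the sides, 22 with a left ratio of at least 1 and 170 with one of at least 0.5. The members changed too. Of the main set, 27 were kept with TMM factors and 13 to 70 when 1 well was left out. Ratios of CPM + 20 gave 58 genes, 39 of them from the main set, and CPM + 1 gave 64, with 57. Means over spots of CPM per spot gave 59, with 44. The main set kept 55 members with sides split at the midpoint of the column range. It kept 74 with sections of at least 11 spots and 74 with edge spots of sections only. For ends against middle, 428 features were called, against 222 by DESeq2, 1002 with no filter on low counts, 11 with no replicate block, 136 among edge spots, 240 with the side as a further term and 136 to 600 when 1 well was left out. Genes of the set higher at the ends numbered 3, and 0 with no block, 1 among edge spots, 0 on the left side, 1 with the side as a term and 0 to 3 when 1 well was left out. Those lower numbered 8, and 2 by DESeq2, 18 with no filter, 0 with no block, 14 among edge spots, 22 on the left side, 4 with the side as a term, 4 with wider ends and 1 to 10 when 1 well was left out. On the left side 301 features were called, against 152 by DESeq2, 11 with no block, 78 in the left-most bin and 178 to 308 when 1 well was left out; of the set 22 were lower, against 10, 0, 7 and 14 to 19 under the same settings, and 14 in the second bin. Rows gave 63 calls with no filter and 0 to 9 when 1 well was left out, none of them from the set. Section size gave 43 calls with no filter, 1 of them from the set, higher in large sections. Leaving out the block puts the large differences between wells into the spread. No value changed direction. Among single named genes, 186 of 190 left over right values moved by less than 1 SD, and 63 of 80 values of the ends comparisons kept their call. The left-side alternatives and the interior ratio without each well were chosen after the data were seen. Wells A and B, with 180 and 201 spots, limit all interior values, and the cause of the remaining changes was not tested.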
